A study of Mus musculus with 9 samples.

Results

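The transcription factor MYC and 39 genes that are known as its targets or partners, or that build ribosomes, were followed in splenic lymphomas and healthy spleens of mice. The 40 genes were given as a list of symbols, and every probe set annotated to exactly 1 of those symbols was read. All 40 were found, on 79 of 45037 probe sets, and among the 18193 genes of the array each was represented by its probe set with the highest mean over the 9 arrays. Total RNA from frozen tissue of 5 splenic lymphomas of Sca1-MALT1 transgenic mice and of 4 spleens of healthy wild-type (WT) mice was hybridised to Affymetrix arrays, with 1 array per sample. The name of the transgene joins the lymphoma gene MALT1 to Sca1, a gene best known from blood stem and progenitor cells. The labels give neither age, sex nor strain, and they number the samples without saying that each came from its own animal, so p-values reflect only how these samples vary, which may be technical. Values are log2 levels from RMA, a method that corrects background, normalizes between arrays and summarises each probe set, and the number of arrays limits their precision.

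MYC pairs with MAX and binds the E-box, the DNA word CACGTG, near the start sites of genes for growth. Among its best known targets are the polyamine enzymes and the factors that copy ribosomal DNA, trim and modify the ribosomal RNA and assemble both ribosomal subunits in the nucleolus. In the spleen, dividing B cells, germinal centre cells and red cell precursors make many ribosomes, and translocated or amplified MYC is a driver of aggressive B-cell lymphoma.

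Of the 40 genes, 33 have a promoter entry in the RefSeq table of build GRCm38.p6 that covers 250 bases before and 50 bases after the start site. The word CACGTG reads the same on both strands, and 8 of these 33 genes (24.2%) hold it in that window, against 10.2% of the 14453 genes that have both a probe set and an entry and 8.09% of all 27025 genes with an entry. In the 250 bases before the start site alone the shares were 6.06% and 8.73% (6.86% of all genes with an entry), so that most matches of the 33 genes reached into or lay in the first transcribed bases. The share in the whole window was not particular to the list. Of 61 other ribosome biogenesis genes with an entry, 13 (21.3%) held the word, and 6 (9.84%) held it before the start site alone. Because the word is the one that MYC and MAX are known to bind, the 8 stretches are shown, 5′ to 3′ on the strand of the gene, with the word in capitals and up to 12 bases on each side.
Max (chr12:76962234-76962263, minus strand): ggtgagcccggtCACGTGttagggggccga
Mybbp1a (chr11:72441355-72441376, plus strand): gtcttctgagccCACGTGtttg
Nop2 (chr6:125131811-125131840, plus strand): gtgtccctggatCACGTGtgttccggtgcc
Pes1 (chr11:3963965-3963994, plus strand): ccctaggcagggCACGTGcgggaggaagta
Tsr1 (chr11:74898092-74898121, plus strand): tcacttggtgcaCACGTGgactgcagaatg
Utp18 (chr11:93885769-93885798, minus strand): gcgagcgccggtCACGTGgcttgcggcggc
Utp20 (chr10:88826765-88826789, minus strand): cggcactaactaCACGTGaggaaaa
Wdr43 (chr17:71616220-71616249, plus strand): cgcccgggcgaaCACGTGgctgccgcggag

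In Nop2 and Utp18 the word ends before the start site, in Max it begins 3 bases before it, and in the other 5 genes it lies after it. A match is a description of the letters and not a bound site. The RefSeq table used here has no entry for Myc, Srm, Fbl, Npm1, Rrp12, Bop1 and Rrs1.

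No gene of the list passed the test between lymphoma and WT spleen. Limma called 0 of the 40 genes at an adjusted p under 0.05, where it called 0.715% of all genes. An unequal-variance test called 0 of the 40, but it called 0 of all 18193 genes, so its count says nothing about the list. At an unadjusted p under 0.05 limma had 1 gene higher in lymphoma (Odc1), against 6.69% of all genes, and 6 lower (Ncl, Npm1, Pes1, Tsr1, Utp20 and Nop16), against 1456 of all 18193 genes. In either direction these are 7 of 40, against 14.7% of all genes. The unequal-variance test had 0 higher and 5 lower at that level, against 5.90% and 7.21% of all genes. The differences were small and mostly negative: 32 of 40 lay below 0, against 49.7% of all genes, the median was -0.10 on the log2 scale against 0.0012 over all genes, and the whole range was -0.32 to 0.46. The SD among the 5 lymphomas exceeded that among the 4 WT spleens in 37 of 40 genes (92.5%), which is also the case for 78.9% of all genes. All 40 genes had a mean level above the median gene of the array. Over the genes at or above that median level, the median difference was -0.038. In whole tissue, fewer cells of a type and less RNA per cell cannot be told apart.

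**Figure D1:**
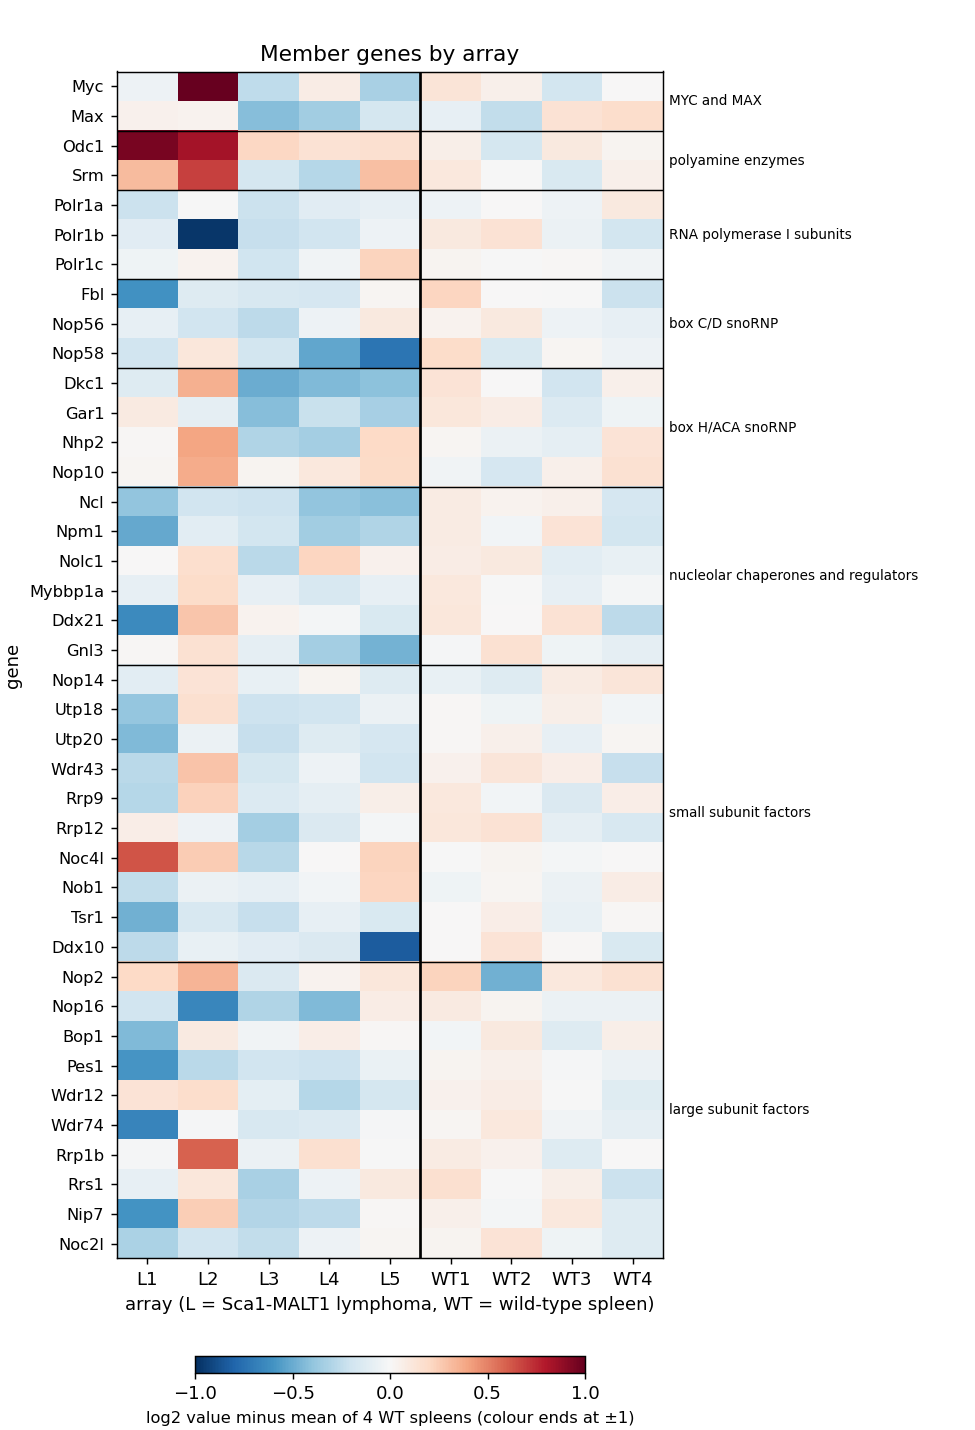
Each row is 1 of the 40 genes, grouped by role, and each column is an array; colour is the log2 value minus the mean of the 4 WT spleens, with the scale ending at ±1. Lymphoma 2 stands out with Myc at 11.23 and Polr1b at 7.43, lymphomas 1 and 2 share a high Odc1, and the columns of lymphomas 1, 3 and 4 are mostly blue, with medians of the 39 genes other than Myc at -0.13, -0.19 and -0.13.

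Myc itself was high in 1 lymphoma. Its level was 9.71, 11.23, 9.51, 9.84 and 9.44 in lymphomas 1 to 5, against 9.90, 9.81, 9.58 and 9.77 in WT spleens 1 to 4. Lymphoma 2 stood far above the next highest lymphoma, lymphoma 4. Lymphomas 1 and 4 lay within the WT range, and lymphomas 3 and 5 lay below all WT spleens. The group means were 9.95 ± 0.73 (SD, n = 5) in lymphoma and 9.76 ± 0.13 (SD, n = 4) in WT spleen, a log2 difference of 0.18 ± 0.33 (SE) with a limma adjusted p of 0.841. Without lymphoma 2 the difference was -0.14. Only 1 probe set is annotated to Myc alone, so no other probe set could repeat its pattern. Max, the partner of MYC, had 8.53, 8.52, 8.06, 8.14 and 8.31 in the lymphomas, against 8.41, 8.25, 8.64 and 8.66 in the WT spleens. Its groups overlapped (difference -0.18 ± 0.13, limma adjusted p 0.584), and lymphoma 2 did not stand apart from lymphoma 1.

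Among the polyamine enzymes Odc1 was the clearest. Odc1 encodes ornithine decarboxylase, the rate-limiting enzyme of polyamine synthesis and a classic MYC target. It had 13.51, 13.39, 12.76, 12.70 and 12.72 in lymphomas 1 to 5, against 12.61, 12.38, 12.65 and 12.58 in the WT spleens. All 5 lymphomas lay above all 4 WT spleens, and Odc1 was the 1 gene of the 40 with separate groups in that direction (3.29% of all genes), but lymphomas 3 to 5 cleared the highest WT spleen by as little as 0.051. The difference was 0.46 ± 0.19 (SE), or 1.37-fold, with a limma adjusted p of 0.299. Of its 3 probe sets the dimmest differed by 0.99, again with separate groups (limma adjusted p over all probe sets 0.126), and the other differed by 0.47 with overlap.
Lymphomas 1 and 2, which had the highest Odc1, had Myc at 9.71 and 11.23. Several scores, each the mean deviation of a marker list from its means over the 9 arrays, also set these 2 lymphomas apart. The erythroid score, from 8 of 10 genes, was 3.25 and 3.02 in them, between -2.04 and 0.13 in the other lymphomas, and between -1.38 and 0.37 in the WT spleens. The cell cycle score, from 19 of 20 genes, was 1.31 and 1.21 in them, -1.30 to -0.13 in the other lymphomas and -0.46 to 0.024 in the WT spleens. The T-cell score, from 5 of 6 genes, was -1.02 and -1.15 in them, 0.18 to 0.47 in the other lymphomas and 0.17 to 0.49 in the WT spleens. The Odc1 difference was 0.20 with the erythroid score as a covariate, 0.34 with the cell cycle score and 0.17 without lymphomas 1 and 2. The parts of Myc and of these cells in the Odc1 level were not tested. Srm, the spermidine synthase gene one step further on, had 10.98, 11.35, 10.49, 10.38 and 10.97 in the lymphomas, against 10.77, 10.66, 10.52 and 10.72 in the WT spleens. Lymphomas 1, 2 and 5 lay above the WT range and lymphomas 3 and 4 below it, so the mean difference of 0.17 ± 0.19 (SE) had no common direction (limma adjusted p 0.719). It was 0.040 without lymphoma 2, and -0.052 without lymphomas 1 and 2. Of 7 further polyamine genes limma called 0, and before adjustment 1 had a p under 0.05. That was the spermine oxidase gene Smox, at a difference of 0.89 (limma adjusted p 0.299), with levels of 10.39, 10.22, 8.84, 8.73 and 8.83 in the lymphomas, against 8.56, 8.46, 8.40 and 8.62 in the WT spleens. Smox thus had the same 2 high lymphomas as Odc1, and its difference was 0.29 without them. Next in size was Sat1, which encodes the acetylase that starts polyamine breakdown, at -0.17 (limma adjusted p 0.561).

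The genes for the abundant proteins of the nucleolus had lower values in lymphoma, without passing the test. Ncl encodes nucleolin, which binds the nascent ribosomal RNA. Its level was 12.62, 12.82, 12.81, 12.63 and 12.60 in lymphomas 1 to 5, against 13.10, 13.05, 13.07 and 12.85 in the WT spleens. The groups did not overlap, with a gap of 0.025 between lymphoma 2 and WT spleen 4. The difference of -0.32 ± 0.085 (SE), a level 0.80 times that of WT spleen, had the lowest p of the 40 genes, but its limma adjusted p was 0.134. All 5 Ncl probe sets were lower in lymphoma, by 0.13 to 0.32 log2 units, and 2 of them had separate groups.
Npm1 encodes nucleophosmin, a histone and ribosome chaperone. It had 12.91, 13.32, 13.24, 13.08 and 13.12 in the lymphomas, against 13.51, 13.39, 13.56 and 13.24 in the WT spleens, where only WT spleen 4 fell within the lymphoma range. Its difference was -0.29 ± 0.10 (SE, limma adjusted p 0.241), and a second probe set differed by -0.32 with separate groups (limma adjusted p over all probe sets 0.165). The other nucleolar regulators overlapped between the groups. The helicase gene Ddx21 was at -0.10, the nucleostemin gene Gnl3 at -0.15, Mybbp1a, which encodes a MYB-binding protein of the nucleolus, at -0.046 and Nolc1, which encodes a chaperone of small nucleolar particles, at 0.032.

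Of the 40 genes 4 had separate groups, against 7.33% of all genes, with Odc1 higher in lymphoma and Ncl, Pes1 and Tsr1 lower (4.04% of all genes). Pes1 and Tsr1 were chosen for description after their values were seen. Pes1, a component of the complex that matures the large subunit RNA, had 10.02, 10.34, 10.42, 10.40 and 10.54 in the lymphomas, against 10.63, 10.65, 10.60 and 10.55 in the WT spleens. The gap between the groups was 0.0033, so they only just missed each other, and lymphoma 1 was far the lowest. The difference was -0.27 ± 0.10 (SE, limma adjusted p 0.280). A second, dimmer Pes1 probe set differed by -0.23 with overlap, and there lymphoma 2, at 7.37, lay above every WT spleen. Tsr1, a factor of the small subunit precursor, had 11.74, 12.06, 11.99, 12.14 and 12.06 in the lymphomas, against 12.22, 12.28, 12.14 and 12.23 in the WT spleens. Here too the gap was tiny, at 0.0082, lymphoma 1 was the lowest, and the difference was -0.22 ± 0.090 (SE, limma adjusted p 0.294). The second Tsr1 probe set differed by -0.17, again with overlap.

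**Figure D2:**
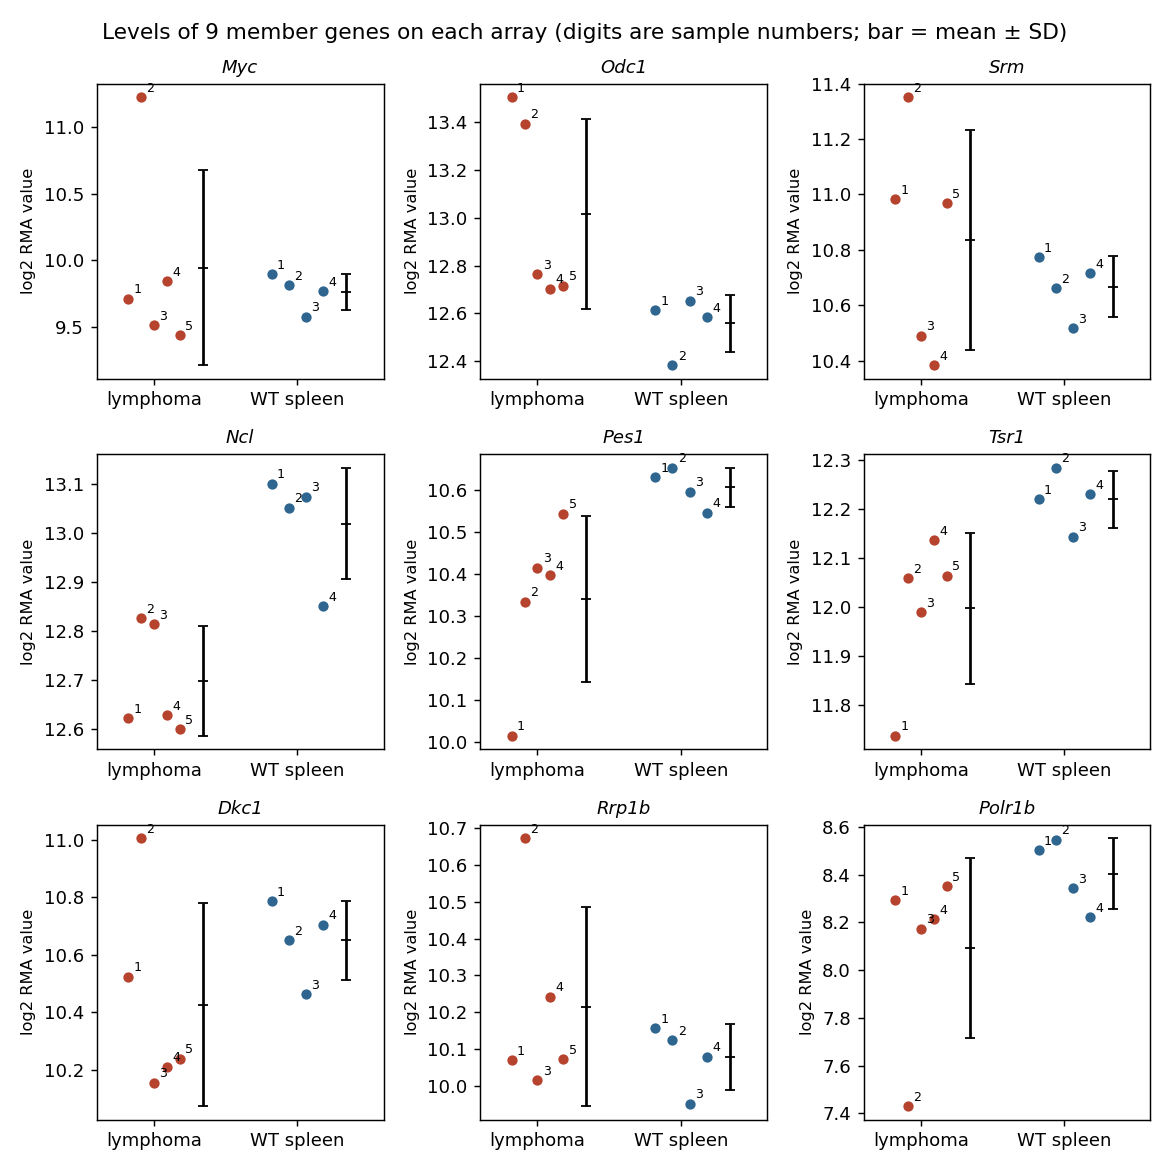
Points are log2 RMA values of 9 genes on each array, with the sample number beside each point, lymphomas in red on the left and WT spleens in blue on the right; the bar is the mean ± SD (n = 5 and n = 4), and each panel has its own axis, which does not start at 0. Lymphoma 2 is the highest array for Myc (11.23), Srm (11.35), Dkc1 (11.01) and Rrp1b (10.67) and the lowest for Polr1b (7.43), whereas lymphoma 1 is the lowest for Pes1 (10.02) and Tsr1 (11.74).

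The subunits of the enzyme that copies ribosomal DNA differed by 0 or less, and none passed the test. RNA polymerase I has its largest subunit from Polr1a and its second from Polr1b, while Polr1c is shared with RNA polymerase III. Polr1b had 8.29, 7.43, 8.17, 8.21 and 8.35 in the lymphomas, against 8.50, 8.55, 8.34 and 8.22 in the WT spleens. Lymphoma 2, with the highest Myc, had by far the lowest Polr1b, and the other lymphomas overlapped with the WT spleens. The difference was -0.31 ± 0.18 (SE, limma adjusted p 0.473), or -0.15 without lymphoma 2. Polr1a differed by -0.13 and Polr1c by -0.0054. Of 13 other genes of RNA polymerase I transcription limma called 0. Before adjustment 4 were lower in lymphoma at a p under 0.05 and 0 were higher, and the median was -0.12. The largest differences were those of the promoter factor genes Taf1a (-0.42, separate groups, limma adjusted p 0.143) and Taf1b (-0.39, limma adjusted p 0.320).

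The particles that modify ribosomal RNA held 1 gene above 0 and 6 below. The box C/D particle, which adds methyl groups, was represented by the methyltransferase gene Fbl (-0.21) and the scaffold genes Nop56 and Nop58. Nop56 had 10.98, 10.87, 10.80, 11.01 and 11.16 in the lymphomas, against 11.10, 11.16, 11.01 and 10.98 in the WT spleens, and the groups overlapped (-0.097). Nop58 had 9.69, 9.99, 9.70, 9.36 and 9.15 in the lymphomas, against 10.07, 9.73, 9.90 and 9.83 in the WT spleens, a difference of -0.30 ± 0.16 (SE, limma adjusted p 0.431). Only lymphoma 2 lay within the WT range. The box H/ACA particle makes pseudouridine, and Dkc1 encodes its catalytic subunit dyskerin. Dkc1 had 10.52, 11.01, 10.15, 10.21 and 10.24 in the lymphomas, against 10.79, 10.65, 10.46 and 10.70 in the WT spleens. Lymphoma 2 was above and lymphomas 3 to 5 were below every WT spleen, so the difference of -0.22 ± 0.17 (SE, limma adjusted p 0.589) averaged opposite deviations. Without lymphomas 1 and 2 it was -0.45, and Dkc1 was then the 1 gene of the 40 that limma called (adjusted p 0.0362), where 3.30% of all genes were called. On the other Dkc1 probe sets lymphoma 2 was again the highest lymphoma, but it lay within the WT range. It was at 10.80 on one, with WT spleen 3 at 10.86. On the other it was at 8.89, beside 8.87 in lymphoma 1 and 8.99 in WT spleen 3. Of the small H/ACA proteins, Nop10 was at 0.15 ± 0.098 (SE), with 12.73, 13.08, 12.73, 12.81 and 12.90 in the lymphomas, against 12.67, 12.54, 12.76 and 12.86 in the WT spleens, which overlapped (limma adjusted p 0.540). Gar1 was at -0.20 and Nhp2 at -0.0069.

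Of the 10 factors of the small subunit, 9 differed by less than 0 and 1 by more. The one above 0 was Noc4l, which works with Nop14, and its probe sets differed in sign. Noc4l had 10.19, 9.81, 9.28, 9.56 and 9.78 in the lymphomas, against 9.56, 9.58, 9.54 and 9.56 in the WT spleens, a difference of 0.17 ± 0.16 (SE, limma adjusted p 0.668). Lymphomas 1, 2 and 5 were above and lymphoma 3 below the WT spleens, and of its 4 probe sets 2 were higher and 2 lower in lymphoma. The processome genes Utp20 and Utp18 were at -0.21 and -0.14, Ddx10 at -0.29, Rrp12 at -0.098, Wdr43 at -0.082, Rrp9 at -0.045 and Nop14 at -0.029. The endonuclease gene Nob1 had 9.68, 9.87, 9.85, 9.90 and 10.15 in the lymphomas, against 9.89, 9.95, 9.87 and 10.01 in the WT spleens, which overlapped (-0.040).
Of the 10 factors of the large subunit, 8 lay below 0. The lowest was Nop16, with 8.48, 8.02, 8.38, 8.24 and 8.75 in the lymphomas, against 8.77, 8.70, 8.62 and 8.62 in the WT spleens. Only lymphoma 5 reached the WT range, and the difference was -0.30 ± 0.13 (SE, limma adjusted p 0.336). Besides Pes1, its complex partners Bop1 and Wdr12 were at -0.059 and -0.049. Wdr74 was at -0.19, Nip7 at -0.18, Noc2l at -0.16 and Rrs1 at -0.048, while the methyltransferase gene Nop2 was at 0.11 and Rrp1b at 0.14.

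**Figure D3:**
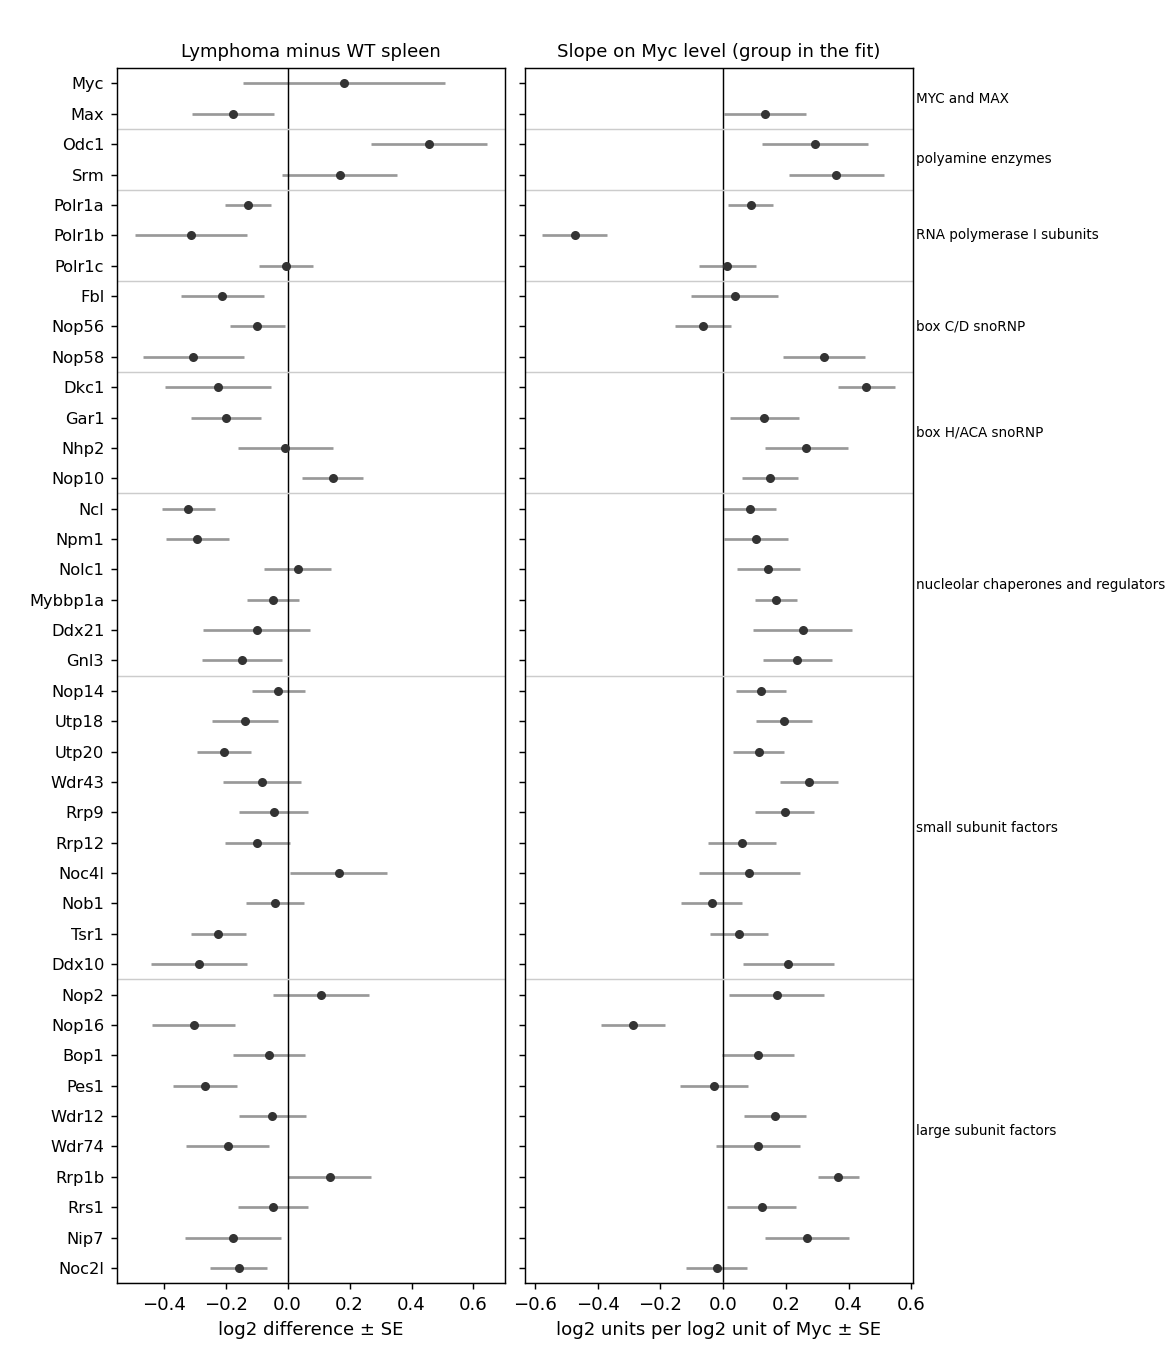
The left panel gives the log2 difference of lymphoma minus WT spleen (± SE) for the 40 genes by role, and the right panel gives the change in log2 level per log2 unit of Myc (± SE) for the 39 genes other than Myc, with the group in the fit. On the left 32 of 40 points lie below 0, from Ncl at -0.32 to Odc1 at 0.46; on the right 33 of 39 lie above 0, from Polr1b at -0.47 to Dkc1 at 0.46.

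In the remainder of the pathway limma called no gene either. Of 71 other ribosome biogenesis genes limma called 0. Before adjustment 12 were lower in lymphoma at a p under 0.05 and 0 were higher. Of their differences 58 were below 0, with a median of -0.094, and the largest were those of Mdn1, which encodes a remodeller of the large subunit (-0.37, limma adjusted p 0.344), and the helicase gene Ddx52 (-0.36, limma adjusted p 0.321). The 14 genes of the nuclear exosome, which trims ribosomal RNA, had a median of -0.0090 and limma called 0. The largest differences were those of the exonuclease gene Dis3 at 0.42 and of C1d at 0.35, the 1 gene with a p under 0.05 before adjustment (limma adjusted p 0.167). The 19 MYC targets outside the nucleolus had a median of 0.0057 and 0 limma calls, and 0 had a p under 0.05 before adjustment. The amino acid transporter gene Slc7a5 was at 0.60 and the cyclin gene Ccnd2 at 0.30. Without lymphomas 1 and 2 limma called 1 of these 19, where it called 3.30% of all genes. That was the purine synthesis gene Ppat at -0.47 (limma adjusted p 0.0311). The 2 lymphomas left out had the highest Ppat of the lymphomas, at 9.98 and 10.26. Among 11 genes of the MYC network limma called 0. Before adjustment Mxi1 was higher and the MYC relative Mycl lower (-0.25) in lymphoma at a p under 0.05. Mxi1, a MAX-binding repressor that competes with MYC, was at 0.73 (limma adjusted p 0.229) with separate groups. It had 10.42, 9.85, 9.27, 9.11 and 9.18 in the lymphomas, against 8.84, 8.71, 8.88 and 8.90 in the WT spleens. Lymphomas 1 and 2 were again the highest, and the difference was 0.35 without them. Mxd3, of the same repressor family, followed at 0.62 (limma adjusted p 0.553), but was at -0.066 without these 2 lymphomas.

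Set against the Myc level of their array, many of the genes were highest in the lymphoma with the most Myc. Lymphoma 2, with Myc at 11.23, was the highest of the 5 lymphomas in 24 of the other 39 genes and the lowest in 2, where over all genes those shares were 19.9% and 26.4%. Lymphoma 1, with Myc at 9.71, was the lowest in 15 and the highest in 5 (27.7% and 22.6% of all genes), and lymphoma 3, with Myc at 9.51, was the lowest in 12 and the highest in 0 (14.9% and 15.6%). Lymphoma 4, with Myc at 9.84, was the lowest in 5 and the highest in 2 (16.7% and 23.6%). Lymphoma 5, with the lowest Myc at 9.44, was the lowest in 5 and the highest in 8 (14.3% and 18.2%). Apart from lymphoma 2, the counts thus did not follow the Myc level. The 71 other biogenesis genes, which were not in the list, had lymphoma 2 as the highest of the 5 lymphomas in 31 and lymphoma 1 as the lowest in 42. Against the WT mean the median of the 39 genes was 0.11 in lymphoma 2 and -0.13, -0.19, -0.13 and -0.022 in lymphomas 1, 3, 4 and 5, while the WT spleens, which define 0, lay between -0.046 and 0.047. Lymphoma 2 was thus the only lymphoma whose median was above the WT mean. For the 71 other genes it was close to that mean at -0.025, with lymphoma 1 at -0.28.

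Lymphomas 1 and 2, which had the highest cell cycle scores, were set side by side. Their cell cycle scores (1.31 and 1.21) and erythroid scores (3.25 and 3.02) were close. Even so, only 4 of the 19 cell cycle genes (21.1%) were higher in lymphoma 2, with a median of -0.13. Myc was 1.52 log2 units higher in lymphoma 2. Of the 39 other genes 31 (79.5%) were higher in lymphoma 2 than in lymphoma 1, with a median of 0.24, as were 56 of the 71 other biogenesis genes (78.9%, median 0.25) and 49.4% of all genes. These are 1 array each, so no test stands behind the contrast. The 2 tumours differed in other cells too: the B-cell score, from 6 genes, was -0.91 in lymphoma 1 and 0.26 in lymphoma 2, with 0.12 to 0.25 in the WT spleens, and the neutrophil score, from 8 genes, was 4.63 and 1.23, with -1.78 to -1.05 in the WT spleens. Of the B-cell list 6 of 7 genes and of the neutrophil list 8 of 8 were measured. In lymphomas 1 and 2 the macrophage score was 0.86 and 0.31, and the plasma cell score 0.34 and -0.059. The part of Myc and of these cells in the contrast was not tested.

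**Figure D4:**
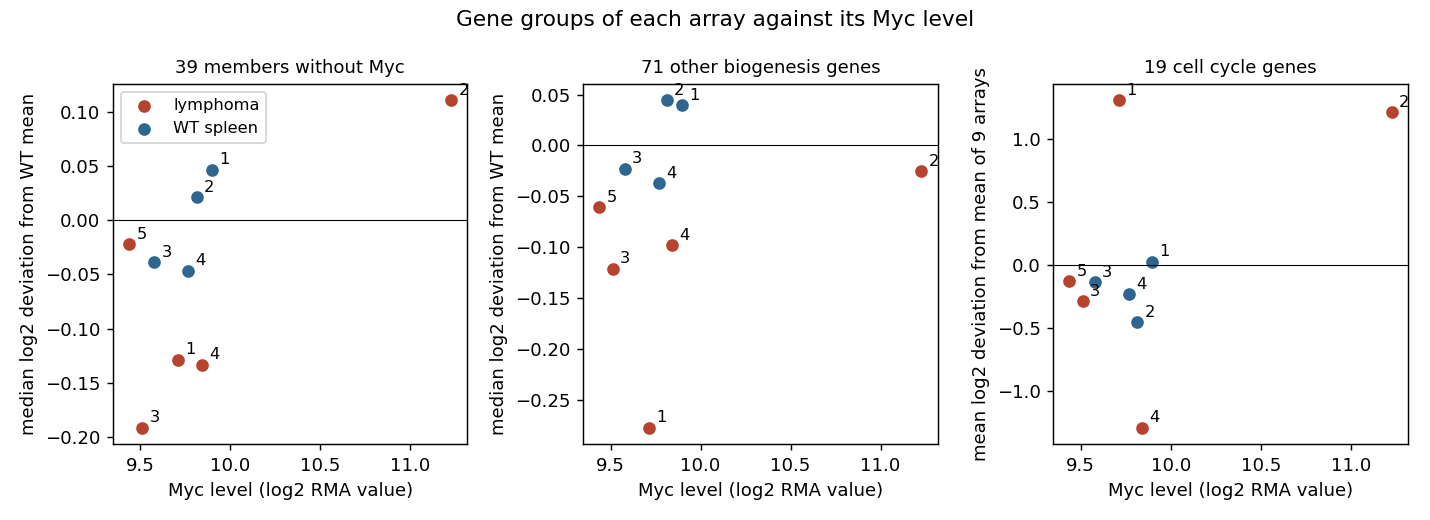
Each point is an array, placed by its Myc level in log2 units, with the sample number beside it and lymphomas in red. The left and middle panels give the median log2 deviation from the WT mean of the 39 other genes and of 71 other biogenesis genes, and the right panel gives the cell cycle score. Lymphoma 2 lies alone at 11.23 in every panel. Lymphomas 1 and 2 have cell cycle scores of 1.31 and 1.21 and deviations of the 39 genes of -0.13 and 0.11.

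A limma fit of each gene on the Myc level, with the group in the model, gave the slope in log2 units per log2 unit of Myc. Of the 39 slopes 33 were above 0, against 46.3% of all genes, and the median was 0.13, against -0.012 over all genes. Limma called 1 of the 39 (1.32% of all genes in either direction, 0.467% upward). That was Rrp1b, a nucleolar protein of the large subunit pathway, at 0.37 ± 0.065 (SE, limma adjusted p 0.0375). Before adjustment 8 had a p under 0.05, 6 of them upward (6.36% of all genes) and 2 downward (8.70%). Rrp1b had 10.07, 10.67, 10.02, 10.24 and 10.07 in the lymphomas, against 10.16, 10.12, 9.95 and 10.08 in the WT spleens. Only lymphoma 2 stood out, and on the other Rrp1b probe sets it did not, with 9.09 against 9.14 in lymphoma 5 on one and 8.21 against 8.13 in lymphoma 1 on the other. The Rrp1b call was lost without any 1 WT spleen (adjusted p 0.0755 to 0.0932) and without lymphoma 3 (0.0602) or 5 (0.0689). Without lymphoma 1 limma called 4 of the 39 (Odc1, Polr1b, Dkc1 and Rrp1b), where 7.57% of all genes were called.
Dkc1 had the steepest slope, at 0.46 ± 0.091 (SE, limma adjusted p 0.0569), followed by Rrp1b, Srm at 0.36 (limma adjusted p 0.306) and Nop58 at 0.32 (limma adjusted p 0.290). At the other end were Polr1b at -0.47 ± 0.10 (SE, limma adjusted p 0.0675), Nop16 at -0.29 (limma adjusted p 0.227), Nop56 at -0.064 and Nob1 at -0.036. Polr1b has only 1 probe set, so no other could repeat its low value in lymphoma 2. On the second Nop16 probe set lymphoma 2 was not the lowest, with 6.37 against 6.26 and 6.18 in lymphomas 3 and 4.

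Lymphoma 2 carries most of the spread in Myc, and the other 8 arrays span levels of 9.44 to 9.90. Without lymphoma 2, 22 of the 39 slopes were above 0, against 54.2% of all genes, their median was 0.023, against 0.037 over all genes, and limma called 0 of the 39 and 0 genes in all. Of the 39, 0 had a p under 0.05 before adjustment. The slope of Srm was then -0.18 and that of Polr1b 0.10, while those of Dkc1 and Rrp1b were 0.52 ± 0.36 and 0.50 ± 0.25 (SE), not past the test.

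The 8 genes with a CACGTG near their start had slopes of -0.030 (Pes1) to 0.27 (Wdr43), with a median of 0.15 and 7 above 0. The 25 genes with an entry and no such word in the window ranged from -0.47 to 0.46, with a median of 0.14 and 20 above 0. The medians of the lymphoma differences were -0.16 and -0.099.

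The 26 genes with more than 1 probe set mostly gave 1 direction. In 5 of them (Mybbp1a, Nhp2, Noc4l, Nolc1 and Wdr43) the probe sets differed in sign. Of the 79 probe sets limma called 0 (0.486% of all probe sets). Before adjustment 3 were higher and 11 lower in lymphoma at a p under 0.05 (13.9% of all probe sets in either direction). The 3 higher ones were all probe sets of Odc1. Among the 11 were the second Bop1 probe set at -0.39 with separate groups and a second Nolc1 probe set at -0.42, each of a gene whose brightest probe set differed by less than 0.1.

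As a check of the tissue, the 6 measured B-cell genes were expressed in both groups. Limma called 0 of them, with 2 lower before adjustment at a p under 0.05. All 6 differences lay below 0, with a median of -0.43. Without lymphomas 1 and 2 all 6 were still below 0, with a median of -0.23. The largest differences were those of the kinase gene Blk (-0.54) and the receptor gene Cd22 (-0.52). The macrophage score, from 8 of 8 genes, was 0.31 to 0.86 in the lymphomas and -0.89 to -0.61 in the WT spleens, and limma called 6 of these 8 genes higher in lymphoma. These were the complement genes C1qb (2.40), C1qc (2.34) and C1qa (1.93), the regulator gene Spic (1.38), the lysosomal marker gene Cd68 (0.996) and the adhesion gene Vcam1 (0.77). The part of the macrophage and B-cell genes in the negative differences of the 40 genes was not tested.
Limma called no gene of the other marker lists. Before adjustment 2 of 5 plasma cell genes and 7 of 8 neutrophil genes were higher at a p under 0.05, against 0 of 5 T-cell, 0 of 8 erythroid and 0 of 19 cell cycle genes. The largest differences were those of Jchain (0.72) and Sdc1 (0.67) among plasma cell genes, S100a9 (3.41) and Lcn2 (3.15) among neutrophil genes, Cd247 (-0.76) and Cd3d (-0.75) among T-cell genes, and Rhag (2.36) and Alas2 (2.13) among erythroid genes. With lymphomas 1 and 2 left out, Cd247 and Cd3d were at -0.027 and -0.089, and Rhag and Alas2 at 0.31 and 0.38. The T-cell and erythroid medians were then 0.00065 and 0.21, while all 5 plasma cell and all 8 neutrophil genes stayed above 0. All 19 cell cycle genes had a higher mean in lymphoma (median 0.29), with the cyclin gene Ccne1 at 0.82 and the replication gene Cdc6 at 0.69. Without lymphomas 1 and 2 the direction turned: 18 of the 19 lay below 0, the median was -0.33, and Ccne1 and Cdc6 were at -0.076 and -0.49.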

How the data were processed

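The deposited log2 values came from RMA by the authors, per the submitters' processing notes; no label or header read here states its version or settings. RMA compresses differences near background. Array medians lay between 6.88 and 6.97, and the values were used as deposited. Of 45101 probe sets 64 controls were left out. Gene names came from the platform annotation, with 34945 of the tested probe sets on 1 symbol, 932 on several and 9160 on none; those with several named no gene. Lymphoma minus WT and the slope on Myc were fitted with limma 3.58.1 in R 4.3.3 (lmFit, eBayes, two-sided, Benjamini-Hochberg over all genes, threshold 0.05), checked on simulated data. Figures used matplotlib 3.10.9. Scores are means of list genes after subtracting each gene's mean over 9 arrays. No filter on dim probe sets was applied.

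The 40 genes and all lists were chosen with earlier results of these data known. Genes named in full were Myc, Max, Odc1 and Srm, called genes, the 5 largest differences each way, the 4 largest SDs among lymphomas and the 4 highest and 4 lowest slopes; other members got their difference only, except Pes1 and Tsr1. In other lists the called genes or the 2 largest differences were named. Alternatives were a dim filter, renormalization, other variance priors, array weights, a Welch-type test, a block for the replicate number, other probe sets, 2 score covariates and left-out arrays.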

Additional observations from a re-analysis of the deposited data

Results flagged for a closer look

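Within each group of each gene, the highest or lowest sample was set against its nearest neighbour by Dixon's criterion. Of 80 such groups 7 had a sample that stood apart. The criterion nominally flags about 1 in 20, but the 80 groups share the same 9 arrays. The share over all genes was not computed, so the count cannot show an excess in these genes. In 3 of the 7 it was lymphoma 2: its Myc was 11.23 (next lymphoma 9.84), its Polr1b 7.43 (next 8.17) and its Mybbp1a 11.32 (next 11.05). Lymphoma 1 stood apart in Bop1 at 9.47 (next 9.88) and Wdr74 at 9.23 (next 9.73). Lymphoma 5 stood apart in Ddx10 at 8.98 (next 9.56). WT spleen 2 stood apart in Nop2 at 8.84 (next 9.43).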

How the results depend on the processing

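The count of the 40 genes called between lymphoma and WT spleen was 0 under every alternative run except without lymphomas 1 and 2, where it was 1 (Dkc1), as it was among the 79 probe sets. Their median difference lay between -0.16 and -0.076 over all alternatives. The count of all genes called was less stable: 130 as reported, 532 with array weights, 0 with the unequal-variance test, 311 with the cell cycle score, 601 without lymphomas 1 and 2, and 10 to 328 with 1 array left out (328 without lymphoma 2, 34 without lymphoma 5, and 36, 10, 14 and 18 without WT spleens 1 to 4). The difference of Myc was -0.039 with array weights, -0.086 with the erythroid score, -0.17 without lymphomas 1 and 2 and -0.14 to 0.31 with 1 array left out, the lowest without lymphoma 2. That of Srm was -0.042 with the erythroid score and -0.052 without lymphomas 1 and 2, and that of Noc4l was -0.086 with probe sets of possibly shared transcripts left out and -0.018 without lymphomas 1 and 2. Genes called on the Myc slope were 1 as reported, 2 with the dim filter (Dkc1 and Rrp1b), 2 with arrays centred on their medians, 0 with quantile normalization repeated, in the 5 lymphomas only or with the erythroid score, and 0 to 4 with 1 array left out (4 without lymphoma 1, namely Odc1, Polr1b, Dkc1 and Rrp1b, where 7.57% of all genes were called, 2 without lymphoma 4, and 0 without any other array). The slope of Nob1 was 0.0021 with centred arrays, 0.019 with the cell cycle score, 0.052 with the erythroid score and -0.33 to 0.044 with 1 array left out. Likewise the slope of Srm was -0.18 to 0.47, that of Nop56 -0.12 to 0.081 and that of Polr1b -0.51 to 0.10, each with its change of sign without lymphoma 2. The cause of these changes was not tested. The labels give both groups replicate numbers without saying that these pair the samples. Over genes, the deviations of same-numbered samples from their group means had correlations of 0.12, -0.20, 0.14 and 0.0041. The marker scores varied widely among the lymphomas, so low correlations cannot show whether the numbers pair them. With the replicate block, which leaves out lymphoma 5, 7 genes were called in all and 0 of the 40, and on the Myc slope 0, where the slope of Nob1 was 0.030. Only 1 probe set is annotated to Myc alone, so the Myc level from another could not be tried.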
